A study of Homo sapiens with 4 samples.

Results

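The genes studied here, 10 in number, are best known from blood vessel endothelium and were followed through the anaplastic thyroid cancer lines 8505C and SW1736: CDH5, TIE1, TEK, FLT1, KDR, EGFL7, ESM1, PECAM1, ENG and ROBO4. They were 10 of 26485 gene identifiers in the deposited tables, and they were chosen by their TPM values in these same libraries, several being high in 8505C and at or near 0 in SW1736. The 4 libraries were 8505C with 1.5 µM DHT, 8505C with vehicle (DMSO), SW1736 with 1.5 µM DHT and SW1736 with DMSO, each after 24 h and each represented by 1 library. DHT is dihydrotanshinone here, a diterpenoid of Salvia root. Expression was read as TPM, a relative abundance that allows for transcript length. With 1 library per group there is no replicate and no test, and a difference between the lines cannot be told apart from any other difference between those cultures.

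Endothelial cells line blood vessels and are held together at their junctions by VE-cadherin, the product of CDH5. Vascular endothelial growth factors act on them through the receptor kinases KDR and FLT1, and angiopoietins act through the receptor kinase TEK with its relative TIE1. ETS factors such as ERG and FLI1, together with SOX and GATA factors, keep these genes active in endothelium. Anaplastic thyroid cancer is an epithelial tumour of thyroid follicular origin that has lost most thyroid features, so these genes are not markers of the tissue from which the lines came.

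In 8505C, 7 of the 10 genes were read and the other 3 were not, a count favoured by the choice of the genes. CDH5, TIE1, FLT1, EGFL7, ESM1, ENG and ROBO4 had at least 1 TPM in both 8505C libraries. KDR was listed at 0 TPM in all 4 libraries, and TEK and PECAM1 stayed under 0.5 TPM in each. The set is therefore described below by its genes. In SW1736, ENG and EGFL7 were the members at 1 TPM or more. Summed over the 10 genes, 8505C held 1059 TPM with DHT and 1005 TPM with DMSO, and SW1736 held 26.3 TPM with DHT and 41.66 TPM with DMSO.

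The genes lie on 8 chromosomes. CDH5 is on chromosome 16 (66366622 to 66404786, hg38 as deposited), TIE1 on chromosome 1 (43300895 to 43323110), FLT1 on chromosome 13 (28300346 to 28495128), ROBO4 on chromosome 11 (124884218 to 124897935) and ESM1 on chromosome 5 (54977867 to 54985586). KDR is on chromosome 4 (55078259 to 55125595) and PECAM1 on chromosome 17 (64319416 to 64390878). TEK, ENG and EGFL7 share chromosome 9, far apart from each other, at 27109141, 127815012 and 136658856.

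RefSeq promoter sequences (GRCh38.p14) were available for 8 of the 10 genes, all but CDH5 and PECAM1. They are shown for the receptor pairs in which 1 gene was read in 8505C and its relative was not, FLT1 with KDR and TIE1 with TEK, and for ESM1 and ROBO4, the members with the highest and the lowest TPM among the 7. Each runs 5′ to 3′ on the strand of its gene and stops before the gene's first base in both RefSeq and the deposited tables. Capitals mark GGAA or its complement TTCC, the core recognised by ETS factors. The windows are chr13:28495129-28495378 and chr4:55125596-55125845 on the minus strand, chr1:43300732-43300894 and chr9:27108975-27109140 on the plus strand, and chr5:54985594-54985843 and chr11:124897936-124898115 on the minus strand.
FLT1: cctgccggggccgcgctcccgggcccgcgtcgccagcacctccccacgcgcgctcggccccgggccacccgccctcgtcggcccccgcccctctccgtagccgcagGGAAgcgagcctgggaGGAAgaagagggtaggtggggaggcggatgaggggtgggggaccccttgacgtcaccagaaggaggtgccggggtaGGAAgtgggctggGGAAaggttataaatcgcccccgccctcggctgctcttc
KDR: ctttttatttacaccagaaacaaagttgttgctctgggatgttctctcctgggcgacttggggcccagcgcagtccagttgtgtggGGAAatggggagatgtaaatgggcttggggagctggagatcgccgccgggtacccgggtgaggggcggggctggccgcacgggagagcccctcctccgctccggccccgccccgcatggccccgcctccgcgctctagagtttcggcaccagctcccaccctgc
TIE1: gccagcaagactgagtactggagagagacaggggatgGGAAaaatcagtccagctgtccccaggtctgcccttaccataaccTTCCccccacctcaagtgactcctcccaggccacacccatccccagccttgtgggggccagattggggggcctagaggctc
TEK: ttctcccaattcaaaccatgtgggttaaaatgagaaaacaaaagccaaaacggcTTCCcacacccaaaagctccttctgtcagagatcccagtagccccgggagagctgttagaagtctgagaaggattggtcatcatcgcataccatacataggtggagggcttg
ESM1: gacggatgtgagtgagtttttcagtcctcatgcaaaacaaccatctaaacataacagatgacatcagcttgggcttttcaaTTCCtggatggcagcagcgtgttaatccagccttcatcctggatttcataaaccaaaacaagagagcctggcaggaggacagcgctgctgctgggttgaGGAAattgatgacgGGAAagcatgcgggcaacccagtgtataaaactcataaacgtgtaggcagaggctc
ROBO4: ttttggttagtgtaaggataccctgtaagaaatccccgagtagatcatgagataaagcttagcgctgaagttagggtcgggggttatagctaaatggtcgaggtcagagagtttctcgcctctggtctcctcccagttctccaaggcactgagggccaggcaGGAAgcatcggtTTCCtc
The promoters differ in composition. In the 250 bases before the RefSeq start, FLT1 had 25 CpG dinucleotides and a GC content of 73.2%, and KDR had 17 CpG and 65.2%, beside a median of 17 CpG and 62.4% over 15843 protein-coding promoters. TIE1 had 1 CpG and TEK had 5, of which the printed stretches hold 0 and 3. Of these 4 receptor genes FLT1 and TIE1 were read in 8505C and KDR and TEK were not. The part of CpG content in these levels was not tested.

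The core GGAA was found on either strand in the 250 bases of all 8 genes and in 92.5% of all promoters, so its presence says little. FLT1 and TIE1 had 4 matches each, TEK, ESM1, ENG and ROBO4 had 3, and KDR and EGFL7 had 1, beside a median of 3. Motifs were counted over the 250 bases, which for TIE1, TEK, ENG and ROBO4 reach into the gene as deposited. The shorter stretches printed above hold 2 GGAA matches for TIE1, 1 for TEK and 2 for ROBO4. A longer ETS motif, CAGGAAG, was present in EGFL7 and ROBO4 (2 of 8 genes, beside 10.4% of promoters), and another, CCGGAAG, in 0 of 8 (11.8%). TATAAA occurred in FLT1 and ESM1 (9.23% of promoters) and the GATA motif AGATAA in ROBO4 (6.84%). The motif GGGCGG, known as an SP1 site, occurred in FLT1, KDR and ROBO4 (56.0% of promoters). A match of letters is not a bound site.

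The endothelial adhesion genes split. CDH5 encodes VE-cadherin, which joins endothelial cells at adherens junctions. It stood at 147 TPM in 8505C with DHT and 128 TPM in 8505C with DMSO, and was listed at 0 in both SW1736 libraries. PECAM1, the CD31 adhesion molecule of endothelium, platelets and leukocytes, stood at 0.207 TPM with DHT and 0.175 TPM with DMSO in 8505C, beside 0.118 TPM with DHT and 0.0286 TPM with DMSO in SW1736. The abundant CDH5 mRNA was thus not accompanied by PECAM1 mRNA above 0.207 TPM.

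Among the receptor kinases 1 member of each family was read. TIE1, an orphan receptor that modulates TEK, stood at 59.7 TPM with DHT and 43.4 TPM with DMSO in 8505C and was listed at 0 in both SW1736 libraries. TEK, the angiopoietin receptor, had 0.414 TPM with DHT and 0.253 TPM with DMSO in 8505C, and in SW1736 it was listed at 0 with DHT and at 0.0391 TPM with DMSO. FLT1, a high-affinity VEGF receptor that also exists as a soluble decoy, had 37.1 TPM with DHT and 35.7 TPM with DMSO in 8505C, and was listed at 0 in both SW1736 libraries. KDR, the main signalling receptor for VEGF in endothelium, was listed at 0 everywhere.

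The other surface receptors were present in 8505C at different levels. ENG, the endoglin co-receptor for BMP9 and TGF-beta ligands, had 248 TPM with DHT and 222 TPM with DMSO in 8505C, against 17.1 TPM with DHT and 33.2 TPM with DMSO in SW1736. ENG was 14.5 times higher in 8505C than in SW1736 with DHT and 6.69 times higher with DMSO. ROBO4, a roundabout receptor that stabilises vessels, had 7.8 TPM with DHT and 4.71 TPM with DMSO in 8505C, against 0.0506 TPM with DHT and 0.0648 TPM with DMSO in SW1736. ENG is the member whose level was substantial in both lines.

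The secreted products comprised the highest member and one shared by the lines. ESM1 encodes endocan, a proteoglycan of endothelial tip cells that responds to VEGF. It had 480.1 TPM with DHT and 503 TPM with DMSO in 8505C, and in SW1736 0.0686 TPM with DHT and 0 with DMSO. Among protein-coding genes ESM1 ranked 289 in 8505C with DHT and 268 with DMSO. EGFL7, a matrix protein that guides vessel tubes and whose gene hosts the microRNA gene MIR126, had 78.4 TPM with DHT and 67.8 TPM with DMSO in 8505C, against 8.93 TPM with DHT and 8.29 TPM with DMSO in SW1736. It was 8.79 times higher in 8505C than in SW1736 with DHT and 8.17 times higher with DMSO. MIR126 within EGFL7 and MIR4454 within ESM1 have rows of their own in the tables, at no more than 1.4 TPM.

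**Figure D1:**
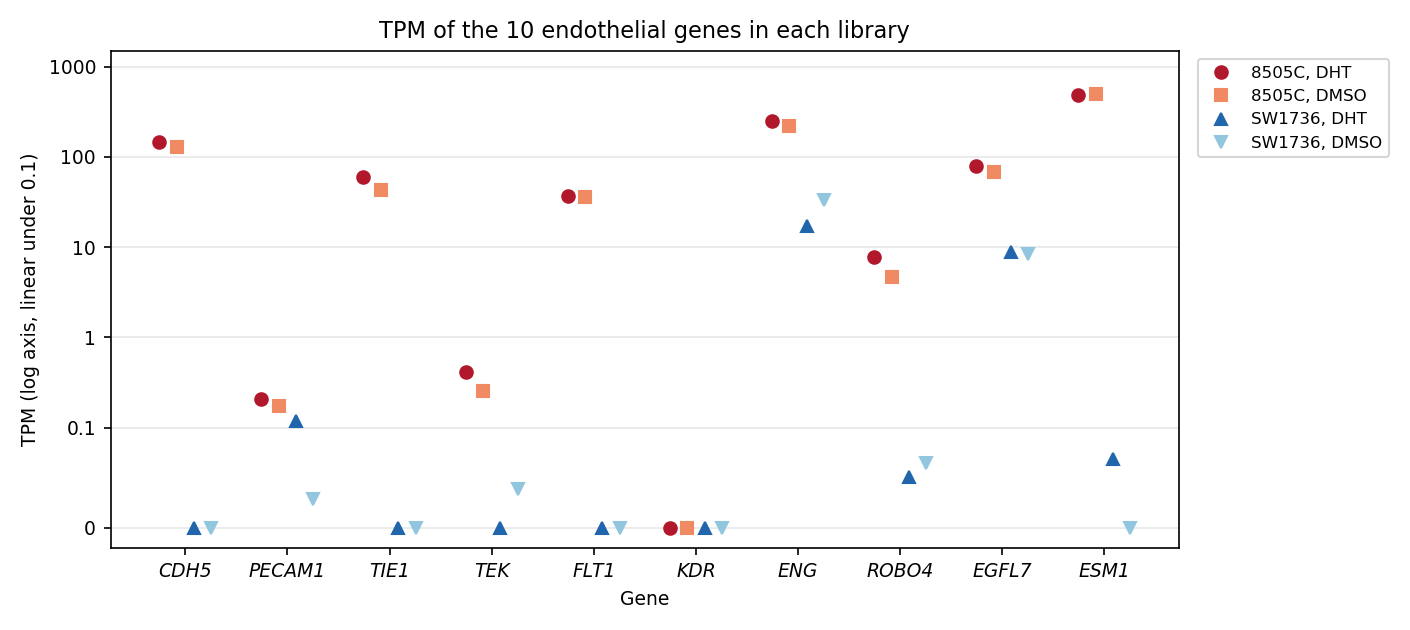
TPM of each of the 10 genes (vertical axis, logarithmic above 0.1 and linear below) in the 4 libraries, with circles for 8505C with DHT, squares for 8505C with DMSO, upward triangles for SW1736 with DHT and downward triangles for SW1736 with DMSO. In 8505C 7 genes stand between 4.71 and 503 TPM, whereas in SW1736 only ENG and EGFL7 are above 1 TPM, and KDR is at 0 in every library.

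Read as counts, 7 of the 10 genes averaged 1 TPM or more across libraries and entered the comparisons. Folds are differences in log2(TPM + 1), where the added 1 shrinks the change of a low gene. Of these 7, 5 passed only through their 8505C values, so they had to differ. All 7 were at least 2-fold higher in 8505C than in SW1736 with DHT, beside 24.7% of 11723 protein-coding genes, and all 7 with DMSO, beside 9.97%. That contrast chose the genes, so the counts describe the choice. The order of the levels, ESM1, ENG, CDH5, EGFL7, TIE1, FLT1, ROBO4, TEK, PECAM1 and KDR from high to low, was the same in both 8505C libraries. Whether neighbours in that order differ beyond the spread between replicates cannot be said with 1 library each.

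Levels of FLT1 and EGFL7 depend on how the abundance was computed. The deposited tables also give a coverage value, taken here as the mean read depth over the exons of each gene. This coverage was divided by the usual ratio of coverage to TPM in its library to put it on the TPM scale. FLT1 then stood at 4.68 with DHT and 4.69 with DMSO in 8505C, which its TPM exceeds 7.92 and 7.61 times. EGFL7 stood at 16.1 with DHT and 13.9 with DMSO in 8505C, and at 1.84 with DHT and 1.70 with DMSO in SW1736, with its TPM 4.87 times higher in both 8505C libraries. The gap exceeded 5 times for 3.65% of tested genes read in 8505C with DHT and for 3.71% with DMSO. It was close to 1 for CDH5, TIE1, ESM1 and ROBO4, and 1.10 with DHT and 1.11 with DMSO for ENG. By this level TIE1 passed EGFL7, and FLT1 stood at or under ROBO4, which had 7.82 with DHT and 4.72 with DMSO. What sets this gap was not tested, nor was the share of the soluble FLT1 form.

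**Figure D2:**
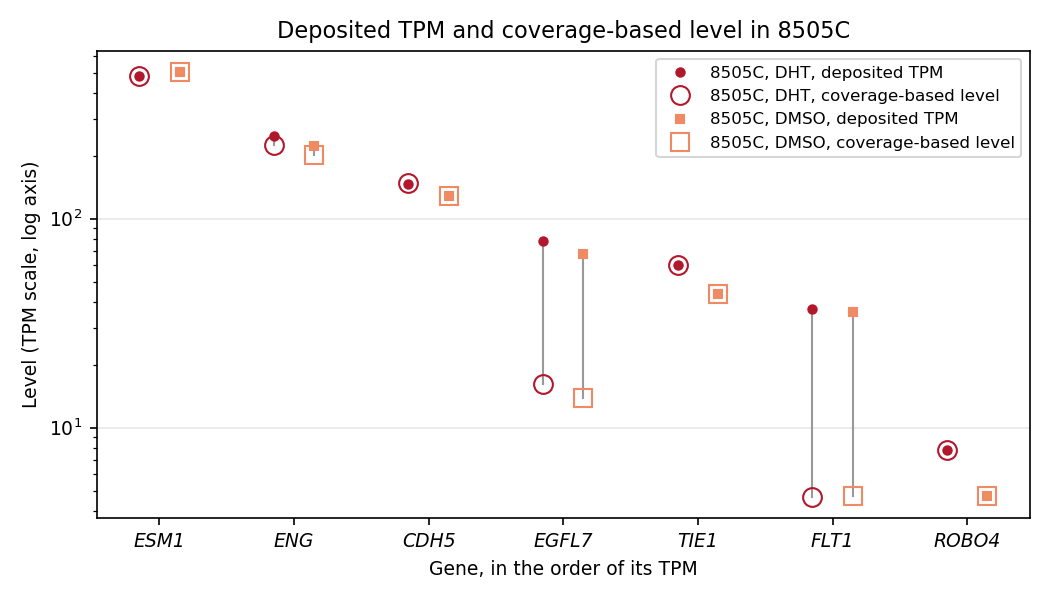
Deposited TPM (small filled symbols) and the coverage-based level (large open symbols) of the 7 genes read in 8505C, on a logarithmic TPM scale, with circles for DHT and squares for DMSO. The symbols coincide for ESM1, CDH5, TIE1 and ROBO4 and nearly so for ENG, and are pulled apart for EGFL7 (78.4 against 16.1 with DHT) and FLT1 (37.1 against 4.68 with DHT).

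The next question was how these mRNAs stood after 24 h of dihydrotanshinone, a contrast that did not enter their choice. In 8505C no member was 2-fold higher with DHT, where 0.273% of the tested genes were, and none was 2-fold lower, where 0.162% were. The 7 genes ranged from -0.07 to 0.62 in log2 fold, with a median of 0.20, beside a median of -0.03 over all tested genes, 10% of which lay below -0.20 and 10% above 0.20. ROBO4 had the largest value (log2 fold 0.62, 1.66 times), followed by TIE1 (0.45, 1.37 times). EGFL7 was at 0.21, CDH5 at 0.20, ENG at 0.16 and FLT1 at 0.06, whereas ESM1 was at -0.07. Of the 7 values, 6 were above 0, beside 42.1% of all tested genes. FLT1 was at 0.00 by the coverage-based level.

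GC content of the mRNA moved with the treatment fold in 8505C, and the members are mostly GC-rich. In bins of 1170 tested genes ordered by GC content (from the longest coding transcript of GENCODE 29), the median log2 fold in 8505C was -0.11 in the bin that holds ESM1 (GC content 40.1%), 0.07 in that of TIE1 (60.8%) and ROBO4 (59.1%), and 0.09 in that of EGFL7 (68.1%) and ENG (63.3%). Set within its own bin, ROBO4 was at percentile 98.5 and TIE1 at 96.1. CDH5 was at 89.1, FLT1 at 83.2, EGFL7 at 78.1, ENG at 67.6 and ESM1 at 64.5. All 7 were thus above the median of genes of like GC content, ROBO4 and TIE1 farthest. The part of GC content in these folds was not tested further. No replicate shows how far a gene moves by itself between libraries of this line.

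In SW1736, where 2 members could be read, they parted. ENG stood at 17.1 TPM with DHT and 33.2 TPM with DMSO, a log2 fold of -0.92 and short of 2-fold. EGFL7 was at 8.93 TPM with DHT and 8.29 TPM with DMSO, a log2 fold of 0.10. None of the tested members was 2-fold higher or lower in SW1736, beside 2.78% (326) and 15.6% (1825) of all tested genes. CDH5, TIE1, FLT1, ESM1 and ROBO4 were at or near 0 there with DMSO and could not be called lower. Their part of the lower count was thus fixed in advance. When the libraries were scaled to the same median, 560 genes were higher and 476 lower. The median gene of SW1736 was at -0.42, and the genes in the GC bin of ENG and EGFL7 had a median of -0.18, within which ENG was at percentile 6.92 and EGFL7 at 74.4. CDH5, TIE1, FLT1 and KDR stayed listed at 0 with the compound, and ESM1, ROBO4, TEK and PECAM1 stayed under 0.12 TPM.

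**Figure D3:**
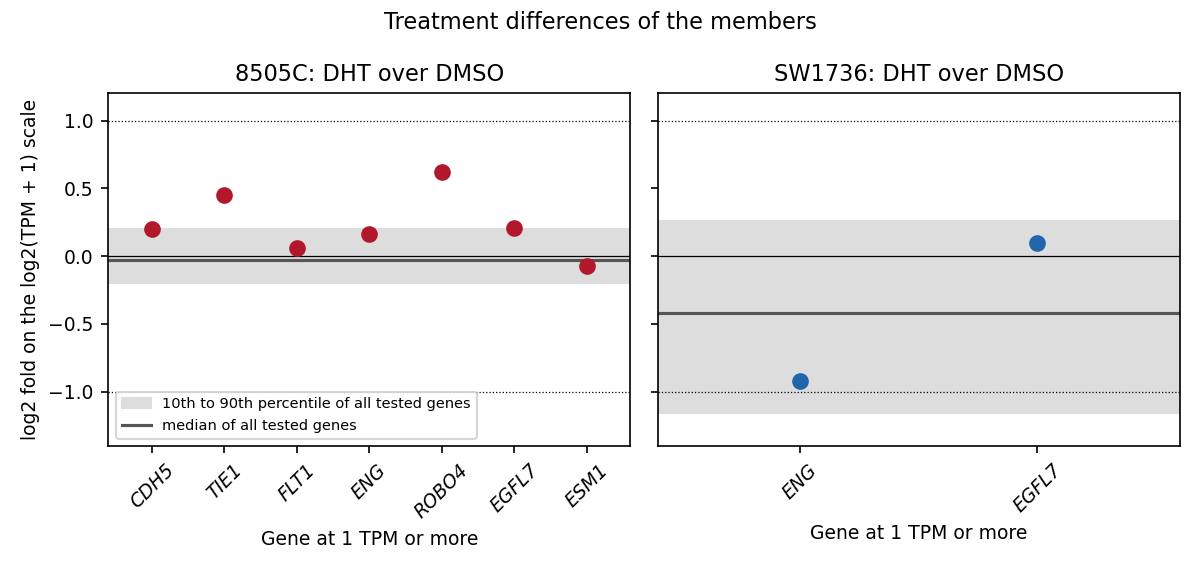
Log2 fold of DHT over DMSO on the log2(TPM + 1) scale for the members at 1 TPM or more in 8505C (left, 7 genes) and SW1736 (right, 2 genes). The grey band spans the 10th to 90th percentile of all tested genes, the grey line is their median, and dotted lines mark 2-fold; TIE1 (0.45) and ROBO4 (0.62) lie above the band in 8505C, and ENG (-0.92) lies inside the wide band of SW1736.

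Ligands and co-receptors of the FLT1 and KDR system were then read from a list of 8 genes, of which 6 were tested. The ligands that bind FLT1 were present in both lines. PGF, placental growth factor, which binds FLT1 and not KDR, had 45.9 TPM with DHT and 34.0 TPM with DMSO in 8505C, against 21.4 TPM with DHT and 14.7 TPM with DMSO in SW1736. VEGFB had 56.5 TPM with DHT and 50.4 TPM with DMSO in 8505C, against 27.3 TPM with DHT and 28.7 TPM with DMSO in SW1736. VEGFA had 29.1 TPM with DHT and 30.8 TPM with DMSO in 8505C, whereas SW1736 had 87.3 TPM with DHT and 40.2 TPM with DMSO. VEGFB and VEGFA were named after their values were seen. The neuropilins, co-receptors for VEGF, ran the other way from FLT1. NRP1 had 14.6 TPM with DHT and 15.9 TPM with DMSO in 8505C, against 42.9 and 57.6 TPM in SW1736, and NRP2 had 3.36 TPM with DHT and 2.52 TPM with DMSO in 8505C, against 37.4 and 34.6 TPM in SW1736. VEGFC, a ligand of the lymphatic receptor FLT4, was also lower in 8505C (19.6 TPM with either treatment, against 58.9 with DHT and 43.2 with DMSO), and FLT4, named after its values were seen, was listed at 0 in all 4 libraries. In both treatments 1 of the 6 was at least 2-fold higher in 8505C and 3 were lower, beside 9.03% and 7.46% of all tested genes.

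Of 8 genes around TIE1 and TEK, 4 were tested, and 3 were at least 2-fold higher in 8505C with both treatments and 1 lower, beside 9.03% and 7.46% of all tested genes. Each of these 4 averaged under 1 TPM in one line and passed the filter through the other, so they had to differ. SVEP1, a large matrix protein known to bind TIE1, had 21.7 TPM with DHT and 22.6 TPM with DMSO in 8505C, against 0.3 and 0.0928 TPM in SW1736. GRB14, an adaptor that binds activated receptor kinases, had 6.81 TPM with DHT and 6.58 TPM with DMSO in 8505C and was listed at 0 in SW1736. The third, ANGPT1, the activating ligand of TEK, had 3.50 TPM with DHT and 2.35 TPM with DMSO in 8505C, against 0 with DHT and 0.0573 TPM with DMSO in SW1736. ANGPTL4, the lower gene, was listed at 0 in 8505C, against 4.36 TPM with DHT and 1.16 TPM with DMSO in SW1736. PTPRB, a phosphatase that acts on TEK and VE-cadherin, missed the filter, with 0.395 TPM with DHT and 0.17 TPM with DMSO in 8505C, against 1.3 and 1.36 TPM in SW1736. ANGPT1, ANGPTL4 and PTPRB were named after their values were seen.

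Of 15 genes around ENG and ROBO4, 11 were tested, 4 were at least 2-fold higher in 8505C in both treatments and 0 lower, beside 9.03% and 7.46% of all tested genes. TGFBR3 and ACVRL1 among the 4 passed the filter through 8505C alone. The ENG partners BMPR2, TGFBR1 and TGFBR2, named after their values were seen, did not reach 2-fold with either treatment. TGFBR3, betaglycan, the co-receptor related to ENG, had 41.9 TPM with DHT and 36.9 TPM with DMSO in 8505C, against 0.488 and 1.08 TPM in SW1736. ACVRL1, the type I receptor through which BMP9 signals in endothelium, named after its values were seen, had 4.2 TPM with DHT and 2.59 TPM with DMSO in 8505C and was listed at 0 in SW1736. ROBO1, a SLIT receptor, had 24.5 TPM with DHT and 28.0 TPM with DMSO in 8505C, against 3.86 and 9.60 TPM in SW1736, and SMAD9, a BMP-regulated SMAD, had 6.59 and 7.10 TPM against 2.62 and 3.03 TPM. The ligands GDF2 (BMP9) and BMP10, likewise chosen with their values in view, were listed at 0 in every library.

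The catenins that tie VE-cadherin to actin were present in both lines. Of 13 junction genes 9 were tested, and 3 were at least 2-fold higher in 8505C in both treatments with 0 lower, beside 9.03% and 7.46% of all tested genes. JUP, plakoglobin, had 68.4 TPM with DHT and 63.6 TPM with DMSO in 8505C, against 14.8 and 21.8 TPM in SW1736. AFDN, the junction scaffold afadin, had 39.0 TPM with DHT and 41.6 TPM with DMSO in 8505C, against 8.77 and 17.8 TPM, and its coverage-based level was 6.29 and 6.70 against 1.41 and 2.86. JAM3, a junctional adhesion molecule, had 5.33 and 6.06 TPM in 8505C against 0.658 and 1.59 TPM in SW1736. CLDN5, the claudin of endothelial tight junctions, named after its values were seen, stayed under 0.3 TPM in every library.

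These partner lists, like the tested genes at large, moved little with DHT in 8505C. None of their tested genes was 2-fold higher or lower, beside 0.273% and 0.162% of all tested genes. The median log2 fold was 0.08 for the VEGF list, 0.02 for the TIE list, and -0.09 for both the ENG and ROBO4 list and the junction list, beside -0.03 over all tested genes.

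Of 24 transcription factors of endothelium 16 were tested, and in both treatments 5 were at least 2-fold higher in 8505C and 3 lower, beside 9.03% and 7.46% of all tested genes. GATA2, FOXC2, SOX18 and LMO2 passed the filter through 8505C alone, and LYL1 and ETV2 through SW1736 alone. GATA2, a zinc finger factor of endothelium and blood stem cells, had 60.2 TPM with DHT and 25.0 TPM with DMSO in 8505C, against 0.084 TPM with DHT and 0 with DMSO in SW1736. It was the factor of this list that was 2-fold higher with DHT in 8505C (log2 fold 1.24). FOXC2, a forkhead factor of lymphatic and vascular development, had 58.7 TPM with DHT and 58.8 TPM with DMSO in 8505C, against 0.0978 TPM with DHT and 0 with DMSO in SW1736. FLI1, an ETS factor, had 52.7 TPM with DHT and 51.4 TPM with DMSO in 8505C, against 6.69 and 8.46 TPM in SW1736, but only 3.09 and 3.05 against 0.391 and 0.496 by the coverage-based level. SOX18 (4.16 TPM with DHT and 2.92 TPM with DMSO) and LMO2 (2.37 and 2.30 TPM) were read in 8505C and listed at 0 in SW1736. ERG, the ETS factor most closely tied to endothelium, was listed at 0 in both 8505C libraries, and SOX17 was listed at 0 in all 4. The statements on SOX18, LMO2, LYL1, ETV2, ERG and SOX17 were chosen after the values were seen.

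The lower factors included HHEX, a homeobox factor of endothelium and of the thyroid, with 13.5 TPM in 8505C under either treatment, against 33.3 TPM with DHT and 28.3 TPM with DMSO in SW1736. FOXF1, a forkhead factor of mesenchyme and vessels, had 2.50 TPM with DHT and 1.30 TPM with DMSO in 8505C, against 10.7 and 19.9 TPM in SW1736. Broad ETS factors were present in both lines, with 0 of 13 tested genes at least 2-fold higher in 8505C in both treatments and 4 lower, beside 9.03% and 7.46% of all tested genes, namely ETS2, ELK1, ELF4 and ETV6. ETS1, named after its values were seen, had 123 TPM with DHT and 133 TPM with DMSO in 8505C, against 116 TPM with DHT and 40.3 TPM with DMSO in SW1736, so it was 2-fold higher in 8505C with DMSO and not with DHT.

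Other endothelial genes formed the largest list, with 42 genes, of which 18 were tested. In both treatments 7 were at least 2-fold higher in 8505C and 1 was lower, beside 9.03% and 7.46% of all tested genes. ECSCR, ICAM2, PLVAP and S1PR1 passed the filter through 8505C alone, and RASIP1 through SW1736 alone. TM4SF1, a membrane protein of endothelium and of many carcinomas, had 1077 TPM with DHT and 912 TPM with DMSO in 8505C, against 86.1 and 69.2 TPM in SW1736. APLN, the peptide apelin, had 48.8 TPM with DHT and 34.8 TPM with DMSO, against 4.04 and 7.24 TPM, and THBD, thrombomodulin, had 42.4 and 35 TPM against 3.20 and 2.19 TPM. ECSCR, a surface protein of endothelial cells, had 23.2 TPM with DHT and 13.8 TPM with DMSO in 8505C and was listed at 0 in SW1736. ICAM2, an adhesion molecule of endothelium and leukocytes, had 11.4 TPM with DHT and 6.34 TPM with DMSO in 8505C, against 0.189 and 0.140 TPM in SW1736. RASIP1, a GTPase regulator of vessel lumen formation, was the lower gene, with 0.350 TPM with DHT and 0.330 TPM with DMSO in 8505C, against 19.4 and 22.4 TPM in SW1736.

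Many classical markers of this list were not read in 8505C. VWF, von Willebrand factor, CLEC14A, SELE, SELP, BMX, LYVE1, STAB1, ARHGEF15 and MMRN1 were listed at 0 in both 8505C libraries, and EMCN and CD93 stayed under 0.15 TPM. Others were read there at a low level. NOS3 had 1.63 TPM with DHT and 0.924 TPM with DMSO in 8505C and was listed at 0 in SW1736. CD34 had 1.29 TPM with DHT and 0.667 TPM with DMSO in 8505C, against 0.0538 and 0.111 TPM in SW1736. These names, and PLVAP and S1PR1, were chosen after their values were seen. Altogether 20 of the 42 genes had at least 1 TPM in 8505C with DHT and 16 with DMSO, beside 17 and 16 in SW1736. With DHT in 8505C, none of the 18 tested genes was 2-fold higher or lower, beside 0.273% and 0.162% of all tested genes. Their median log2 fold was 0.15, beside -0.03 over all tested genes.

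**Figure D4:**
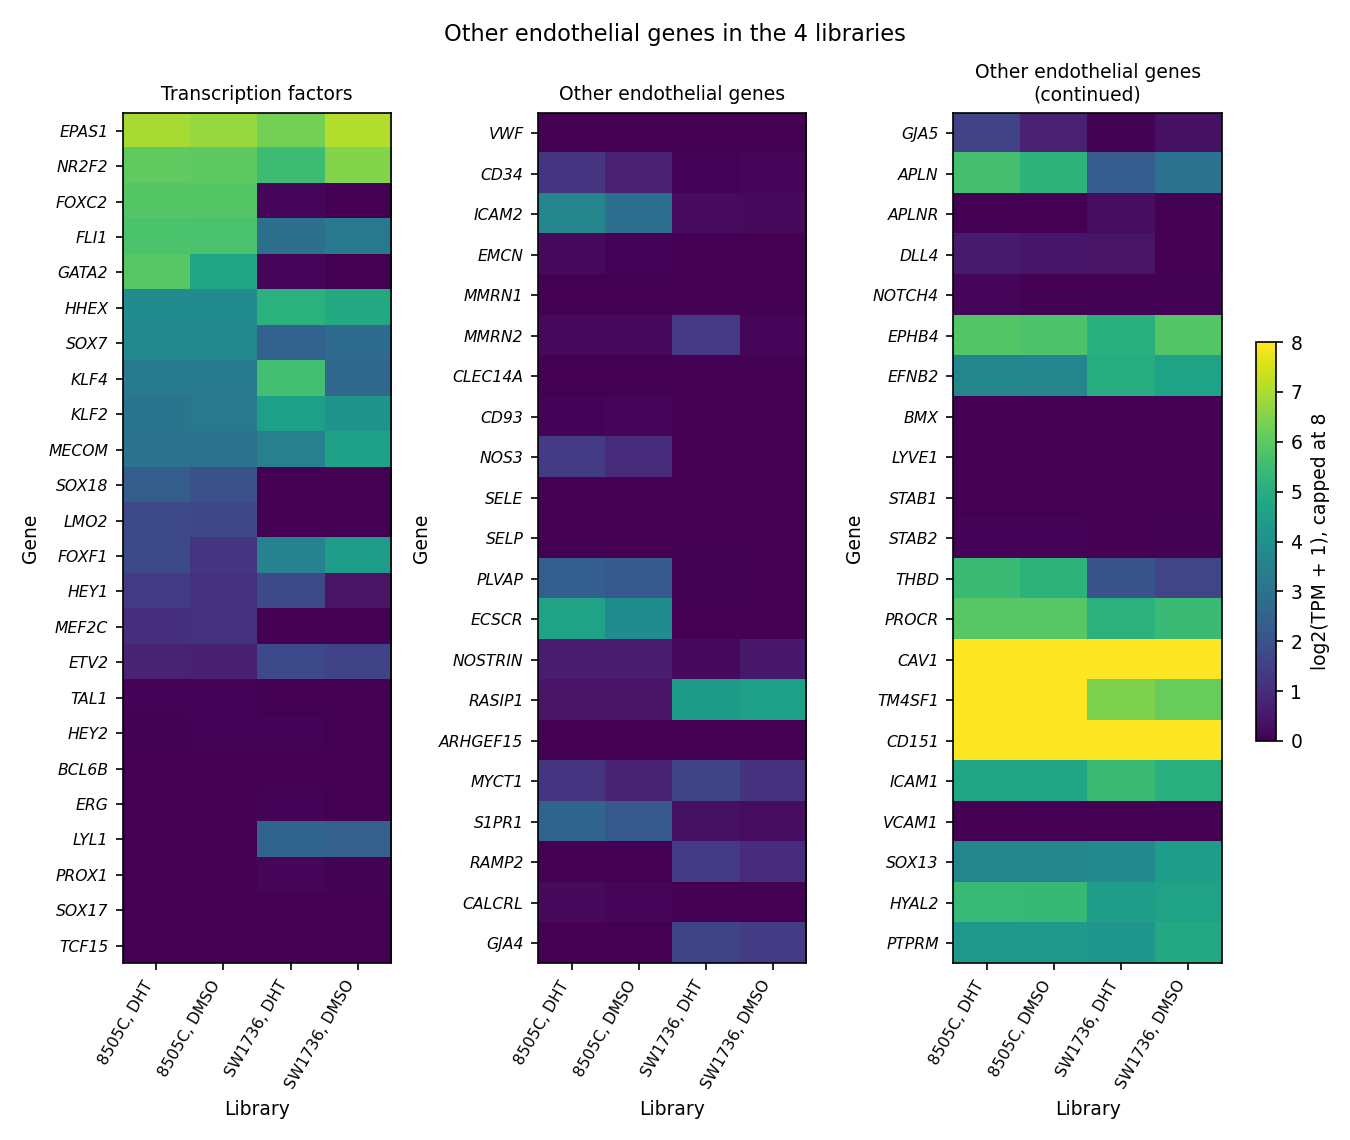
Heat map of log2(TPM + 1), with colours capped at 8, for 24 endothelial transcription factors (left, ordered by their mean in 8505C) and 42 other endothelial genes (middle and right) in the 4 libraries. FOXC2, GATA2, ECSCR and ICAM2 are lighter in the 8505C columns than in those of SW1736, RASIP1 and LYL1 the reverse, and ERG, VWF and CLEC14A are dark throughout.

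Markers of other cells were read beside these genes. Of 16 blood cell markers 2 were tested, CD68 and CD14, and their list summed to 69.8 TPM with DHT and 52.7 TPM with DMSO in 8505C, against 25.5 and 17 TPM in SW1736. Most of that was CD68, a lysosomal protein, whereas the leukocyte marker PTPRC stayed under 0.05 TPM in all libraries, and 10 and 11 of the 16 were listed at 0 in 8505C with DHT and DMSO. Of 11 mural cell markers 4 were tested, and in both treatments 2 were at least 2-fold higher in 8505C and 0 lower, beside 9.03% and 7.46% of all tested genes. CSPG4, the NG2 proteoglycan of pericytes and tumour cells, had 74.7 TPM with DHT and 62.3 TPM with DMSO in 8505C, against 4.21 and 8.79 TPM in SW1736, and MCAM had 192 and 179 TPM against 39.5 and 54.7 TPM, while PDGFRB and RGS5 were at or under 5 TPM. ACTA2, also tested, was lower in 8505C, with 5.38 TPM with DHT and 4.9 TPM with DMSO, against 9.41 and 8.42 TPM in SW1736. The names PTPRC, CD14, PDGFRB, RGS5 and ACTA2 were chosen after their values were seen. In bulk RNA, a few cells with much of an mRNA and many cells with little of it cannot be told apart.

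TG, which encodes thyroglobulin, did not exceed 0.0587 TPM. NKX2-1 was read in 8505C (174 TPM with DHT and 69.8 TPM with DMSO) and PAX8 in SW1736 (117 and 87.1 TPM), with PAX8 under 0.3 TPM in 8505C and NKX2-1 listed at 0 in SW1736. FOXE1, a thyroid forkhead factor, was at or under 0.101 TPM in 8505C, against 22.3 TPM with DHT and 60.6 TPM with DMSO in SW1736. Of the 14 genes of this list 8 were tested, with 1 at least 2-fold higher in 8505C in both treatments and 4 lower, beside 9.03% and 7.46% of all tested genes. Of these, NKX2-1 passed the filter through 8505C alone, and PAX8, FOXE1 and KRT19 through SW1736 alone. NKX2-1 was 2-fold higher with DHT in 8505C (log2 fold 1.31). KRT19 was listed at 0 in 8505C, against 883 TPM with DHT and 607 TPM with DMSO in SW1736. KRT18 had 1418 TPM with DHT and 1170.1 TPM with DMSO in 8505C, against 403 and 585 TPM in SW1736. KRT8 had 1213 and 1005 TPM against 686 and 755 TPM. KRT7 went the other way, with 1026 TPM with DHT and 734 TPM with DMSO in 8505C, against 1930.3 and 2081 TPM in SW1736. EPCAM did not exceed 0.184 TPM in any library, and CDH1 did not exceed 0.0631 TPM. KRT18, KRT8, KRT7, EPCAM and CDH1, like TG, were named after their values were seen.

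Of 9 fibroblast markers 4 were tested, with 1 at least 2-fold higher in 8505C in both treatments and 2 lower, beside 9.03% and 7.46% of all tested genes, and each of these 3 passed the filter through one line alone. COL1A1, a chain of type I collagen, had 0.773 TPM with DHT and 0.496 TPM with DMSO in 8505C, against 146 and 349.9 TPM in SW1736, and COL1A2 was listed at 0 in 8505C, against 136 and 237 TPM. COL3A1 had 7.77 TPM with DHT and 2.69 TPM with DMSO in 8505C (log2 fold 1.25), against 0.137 and 0.301 TPM in SW1736. The part of any of these marker lists in the members' values was not tested.

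Genes with a pattern like that of the members were found by rule. Of 19083 protein-coding genes, 40 were at or under 0.1 TPM in both SW1736 libraries and at or above 20 TPM in both 8505C libraries, and 24 showed the reverse. ESM1, CDH5, TIE1 and FLT1 were 4 of the 40, at ranks 1, 5, 17 and 24 by mean level in 8505C. The 10 highest others were EPB41L3 (mean 404 TPM in 8505C), SFRP1 (320.3), LCE2A (159), GNGT2 (122), NKX2-1 (122), KPRP (117), BEX1 (108), LAMP3 (81.3), ABI3 (71.8) and SMOC1 (63.9). FOXC2 and GATA2 of the transcription factor list were among the 40 as well. These 4 members therefore shared their pattern with genes of other tissues, among them the epidermal genes LCE2A and KPRP. The other members did not meet the rule, which repeats the contrast that chose the members. FLT1 met it by deposited TPM alone, as its coverage-based level in 8505C was 4.68 with DHT and 4.69 with DMSO.

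Nearest to CDH5 by Euclidean distance of log2(TPM + 1) over the 4 libraries were GNGT2 (distance 0.258), BEX1 (0.497), LCE2A (0.531), KPRP (0.535) and GJA1 (0.544), which encodes a gap junction protein. Among the members TIE1 was the closest to CDH5 (distance 2.01, rank 21 of all protein-coding genes), followed by ESM1 (2.60) and FLT1 (2.67). These distances are over 4 libraries that share 2 cell lines and describe the level as much as the pattern.

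Most genes beside the members did not differ 2-fold between the lines, nor did most tested genes. Of the 20 nearest protein-coding genes on either side of the 10 members, 13 were tested. None was at least 2-fold higher in 8505C in both treatments and 1 was lower, beside 9.03% and 7.46% of all tested genes. SRD5A3 beside KDR passed 2-fold with DMSO alone (log2 fold 1.11), and IFT74 beside TEK (1.11) and TEX2 beside PECAM1 (1.21) with DHT alone, while ROBO3 beside ROBO4 was more than 2-fold lower with DMSO alone (-1.36). AGPAT2, an acyltransferase gene 0.465 kb from EGFL7, had 101 TPM with DHT and 93.8 TPM with DMSO in 8505C, against 98.9 and 110 TPM in SW1736. FPGS, 0.931 kb from ENG, had 96.1 and 88.3 TPM in 8505C against 109.6 and 107 TPM in SW1736. ROBO3, 2.74 kb from ROBO4, had 2.95 TPM with DHT and 1.65 TPM with DMSO in 8505C, against 6.40 and 5.82 TPM in SW1736. CDH11, a mesenchymal cadherin and the nearest coding gene on the left of CDH5 at 1244 kb, was listed at 0 in 8505C, against 19.0 TPM with DHT and 37.2 TPM with DMSO in SW1736, so these cadherins were read in opposite lines. KIT, next to KDR, stayed under 0.6 TPM.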

How the data were processed

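Per the labels' protocols, RNA was isolated with RNeasy Mini columns from SW1736 and 8505C cells and libraries were made with the Universal Plus mRNA-Seq kit. The tools named, per the submitters' processing notes, are StringTie and bcl2fastq 2.20, with the build hg38. The aligner, annotation and StringTie version: not given in the sources used here. In each library the deposited TPM sums to 1000000. The file headers name coverage, FPKM and TPM without defining them. The deposited FPKM was taken as scaled by length and fragments, and the deposited coverage as read depth averaged across exons. Depth in reads is unknown, and intervals that need it are left out.

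Rows of a gene identifier were summed. Of 26485 identifiers, 23758 matched a RefSeq symbol, 892 a GENCODE 29 name and 754 a synonym; 11723 protein-coding genes had a mean of at least 1 TPM. Folds are differences of log2(TPM + 1), and called means at least 2-fold. The coverage-based level is coverage divided by the median ratio of coverage to TPM of genes with at least 5 FPKM, 1.834 and 1.422 for 8505C with DHT and DMSO and 1.963 and 1.604 for SW1736; it was added after the data were seen. The members and the 11 other gene lists were chosen with earlier results of these data known. Named were all members, list genes with at least 5 TPM in a library and 2-fold apart between lines in both treatments, list genes 2-fold apart with DHT in 8505C, the nearest coding neighbours, the 10 highest 8505C genes near 0 in SW1736 and the 5 genes nearest to CDH5; other names are marked. The fold count was also run on simulated data in which genes of high TPM were changed by more than the threshold. Their recovery was thus all but fixed in advance, and no low gene was changed. That run checks the counting and not its error in real libraries. Python 3.11.15, pandas 2.3.3, numpy 2.4.6 and matplotlib 3.10.9 were used.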

Additional observations from a re-analysis of the deposited data

Results flagged for a closer look

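ENG went in opposite directions with DHT in the lines: its log2 fold was 0.16 in 8505C, with 248 TPM with DHT and 222 TPM with DMSO, and -0.92 in SW1736, with 17.1 TPM with DHT and 33.2 TPM with DMSO. With 1 library per group this difference was not tested. Of 10346 tested genes at 1 TPM or more in all libraries, 28.9% were likewise higher with DHT in 8505C and lower in SW1736. With FPKM in place of TPM the ENG value in SW1736 was -0.67.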

How the results depend on the processing

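No paired analysis was possible because each group has 1 library. Across the alternatives run (pseudocount, FPKM, median scaling, filters, identifiers, threshold, coverage-based level), 224 member folds kept their side of the 2-fold threshold and 0 past it changed sign. The filter, identifier and threshold settings leave a member's fold value itself unchanged, so part of this count was fixed in advance. The folds between lines belong to genes chosen by that contrast. FLT1 with DHT in 8505C, at 0.06, came to 0.00 by the coverage-based level, so it has no direction there. ROBO4 between the lines with DMSO missed 2-fold at a pseudocount of 5 (0.94). In 8505C the treatment folds ranged from 0.40 to 0.72 for ROBO4 and from 0.42 to 0.48 for TIE1, and ENG in SW1736 ranged from -0.95 to -0.49 and EGFL7 there from 0.07 to 0.52, both ends at the high side under median scaling, since the median gene of SW1736 was at -0.42. Counts over all genes moved more; the cause was not tested. With DHT in 8505C, 91 genes were higher and 35 lower at a pseudocount of 0.1, 13 and 12 at 5, and 75 and 42 over all identifiers, and 19 were higher at a mean of 5 TPM. At 1.5-fold, 1 member (ROBO4) was higher, with 149 genes higher and 62 lower. With DHT in SW1736, 687 were lower at a pseudocount of 5 and 705 with FPKM, and median scaling gave 560 higher and 476 lower. At 1.5-fold, 1 member (ENG) was lower, with 551 genes higher and 4481 lower. Between lines with DMSO, 724 were higher and 877 lower in 8505C at a pseudocount of 5, and 2216 and 2834 at 1.5-fold. With DHT, 1713 were higher and 829 lower at a pseudocount of 5, 1883 were higher with FPKM, 1693 higher and 1910 lower with median scaling, and 4798 and 2005 at 1.5-fold.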

Other observations

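Some endothelial genes outside the 10 were read in SW1736 and not in 8505C. LYL1, a helix-loop-helix factor of endothelium and blood, was listed at 0 in 8505C, against 4.96 TPM with DHT and 4.42 TPM with DMSO in SW1736. GJA4, an arterial connexin, was listed at 0 in 8505C, against 2.11 and 1.69 TPM in SW1736, and RAMP2, a subunit of the adrenomedullin receptor, was listed at 0 in 8505C, against 1.57 and 1.02 TPM. ETV2, the ETS factor that initiates the endothelial programme in embryos, had 0.713 TPM with DHT and 0.626 TPM with DMSO in 8505C, against 2.41 and 2.09 TPM in SW1736. Other low genes of the same lists went the other way, among them GJA5, MEF2C and NOS3. GJA5 had 1.97 TPM with DHT and 0.671 TPM with DMSO in 8505C, against 0.0319 and 0.289 TPM in SW1736. MEF2C had 1.18 and 1.24 TPM in 8505C and NOS3 had 1.63 and 0.924 TPM, and both were listed at 0 in SW1736. These genes were chosen after their values were seen, and all are near the lower end of what the libraries show.

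The endothelial factor KLF4 and the VEGF gene VEGFA were higher with DHT in SW1736, where the VEGF receptors FLT1 and KDR were listed at 0. KLF4 had 48.1 TPM with DHT and 5.37 TPM with DMSO there (log2 fold 2.95), against 8.72 and 8.77 TPM in 8505C. VEGFA had a log2 fold of 1.10 in SW1736 and of -0.08 in 8505C, where FLT1 was read. KLF4 and VEGFA were chosen after their values were seen.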
